A study of Rattus norvegicus with 10 samples.

Results

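S100 proteins are small calcium-binding proteins of vertebrates, most of which work as dimers. Each subunit carries a pair of EF-hands, the helix-loop-helix folds that hold calcium. On binding calcium most of them expose a surface that grips a target, such as an annexin or a myosin heavy chain. Some members are also released from cells and act outside them as danger signals. The family described here is 9 genes: S100a1, S100a4, S100a6, S100a8, S100a9, S100a10, S100a11, S100b and S100g. Each of the 9 symbols was the single gene symbol of 1 probe set in GEO's platform annotation, so 9 of the 15923 probe sets of the array were taken. The family was chosen on earlier results of these data, the log2 differences between the 2 groups of mothers, among them that of S100a4. Those differences are therefore given as a description, and nothing is supported with them.

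The samples were kidneys of rat fetuses taken at 22 days of gestation, near term, and each was measured on 1 Affymetrix expression array. The hyperinsulinemic group was 5 kidney samples (replicates 6 to 10) of growth-restricted fetuses. Their mothers were Wistar rats of 200 to 280 g on a normal diet, with a sustained-release insulin implant segment of 2 mm under the skin, placed a week before mating and again a week after it. The normal group was 5 samples (replicates 1 to 5) from normal mothers on a regular diet, for whom the labels name neither a strain nor an implant. The labels name no mother, litter, fetal sex, pooling or batch, so a p-value here reflects sample-to-sample spread alone, part of which could be technical.

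Signals are MAS5 values on a linear scale, scaled to 1 trimmed mean on every array. Of 8 kidney marker genes, 7 were on the array and all 7 passed the filter on low signals, and 0 passed an adjusted p of 0.05 in limma's fit. They ran from the thick limb gene Umod, at a log2 difference of -0.17 ± 0.14 (SE), to the collecting duct water channel gene Aqp2, at 0.45 ± 0.11, which averaged 1756 ± 175 in hyperinsulinemic and 1299 ± 242 in normal kidneys (SD, n = 5 each) with no overlap. Hyperinsulinemic replicate 6 had the lowest median correlation with the other arrays, at 0.981, against 0.985 to 0.988 for the rest. The X-inactivation transcript Xist ran from 42.4 to 70.5 in the hyperinsulinemic group and from 0.8 to 2.0 in the normal group. Group and Xist level, and with Xist level fetal sex, which the labels do not name, therefore cannot be told apart. This holds for every group difference given below.

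In the RefSeq annotation of the GRCr8 assembly, 7 of the 9 genes lie on chromosome 2. S100a8 and S100a9 are immediate neighbours there, as are S100a11 and S100a10. S100a4 lies between S100a3 and S100a5, and S100a6 follows S100a5. S100b lies on chromosome 20 and S100g on the X chromosome. RefSeq's promoter table for GRCr8 held 5 of the 9 genes. The 100 bases before the annotated start of each are shown, 5′ to 3′ on the gene's strand, because these promoters differ in their core letters although the genes are close relatives. Capitals mark TATAAA, the letters of a TATA box, or GGGCGG, those of a GC box; both strands were searched, and the 2 GGGCGG matches of S100a11 overlap each other.
S100a4, chr2:178388429-178388528, plus strand: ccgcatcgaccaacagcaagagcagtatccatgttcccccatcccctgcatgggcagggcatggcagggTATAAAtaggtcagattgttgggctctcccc
S100a9, chr2:178490623-178490722, minus strand: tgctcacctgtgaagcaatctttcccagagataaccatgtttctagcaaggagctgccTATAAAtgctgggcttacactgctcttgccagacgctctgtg
S100a6, chr2:178398437-178398536, plus strand: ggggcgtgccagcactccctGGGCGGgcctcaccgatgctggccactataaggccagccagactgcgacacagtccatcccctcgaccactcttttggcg
S100a11, chr2:181875032-181875131, plus strand: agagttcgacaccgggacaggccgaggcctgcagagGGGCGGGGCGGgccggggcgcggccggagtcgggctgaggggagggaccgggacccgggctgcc
S100b, chr20:12381082-12381181, minus strand: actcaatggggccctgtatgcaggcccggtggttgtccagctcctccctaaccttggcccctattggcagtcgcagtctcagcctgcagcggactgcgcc
S100a4 and S100a9 each held TATAAA once, letters found in the same window of 5.78% of 33469 rat promoters. S100a6 held GGGCGG once and S100a11 2 times, against 21.6% of promoters with at least 1 match, and S100b held neither. The window of S100a11 was 80% G or C, and that of S100a9 49%, against a median of 54% over all promoters.

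S100a4 was lower in kidneys of the hyperinsulinemic group. It encodes a protein of motile and mesenchymal cells that binds non-muscle myosin and is widely used as a fibroblast marker. Its signals were 73.4, 56.4, 79.2, 103 and 113 in hyperinsulinemic replicates 6 to 10, against 112, 138, 124, 154 and 165 in normal replicates 1 to 5. The lowest 4 hyperinsulinemic arrays lay below every normal array, and the groups overlapped only through replicate 10, which was just above normal replicate 1. The means were 85.0 ± 22.9 in the hyperinsulinemic and 139 ± 21.5 in the normal group (SD, n = 5 each), a ratio of 0.612 and a log2 difference of -0.64 ± 0.15 (SE) on the log2(signal + 16) scale. In whole kidney RNA, fewer cells of a type and less RNA per cell cannot be told apart. S100a4 reached the filter, the 40th percentile of the array, on 2 hyperinsulinemic and all 5 normal arrays, so it was tested in good part through the group where it was high. Of 10 genes of fibroblasts and stroma, 9 were lower in the hyperinsulinemic group, as were 49.1% of all tested probe sets. The list ran from Lum at -0.63 to Vim at 0.01, with a median log2 difference of -0.14 and 0 past the threshold. The summed signal of that list ran from 10922 to 12749 in hyperinsulinemic and from 12225 to 14115 in normal kidneys. Its part in the difference of S100a4 was not tested.

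Across the family, 8 of 9 probe sets were lower in the hyperinsulinemic group and 1, S100b, was higher. Of all 9601 tested probe sets, 49.1% were lower. The median log2 difference of the 9 was -0.21, and that of the 9601 probe sets tested was 0.00200. Of the 9, 6 passed the filter, and S100a8, S100b and S100g did not. In limma's fit across all 9601 probe sets 0 of the 6 passed an adjusted p of 0.05, where 1 probe set in all did, that of Rabepk, or 0.0104%. The smallest adjusted p among them was 0.393, for S100a4 (limma), and 1 of the 6, again S100a4, had an unadjusted p under 0.05, as had 5.36% of all. The groups overlapped for each of the 9; 1.04% of the tested probe sets did not overlap. Liver genes were mostly higher in the hyperinsulinemic group: of 8, 6 were tested, with 5 higher, 1 lower and 0 past the threshold. They ran from Afp at -0.072 ± 0.094 to Alb at 1.67 ± 0.76 (log2, SE), with a median of 1.03. Alb signals overlapped, at 84.9 to 1742 in hyperinsulinemic and 42.9 to 842 in normal kidneys. The summed signal of the liver genes was 1535 to 5130 in hyperinsulinemic and 1227 to 2756 in normal kidneys. The part of the liver genes in the S100 differences was not tested. The order of the differences, on the log2(signal + 16) scale, ran from S100a4 through S100a9, S100a8, S100a1, S100a6, S100a10, S100g and S100a11 to S100b at 0.02. From S100a9 onward, neighbours in this order differed by less than the larger of their standard errors, counting only members that were tested; S100a4 and S100a9 differed by more.

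**Figure D1:**
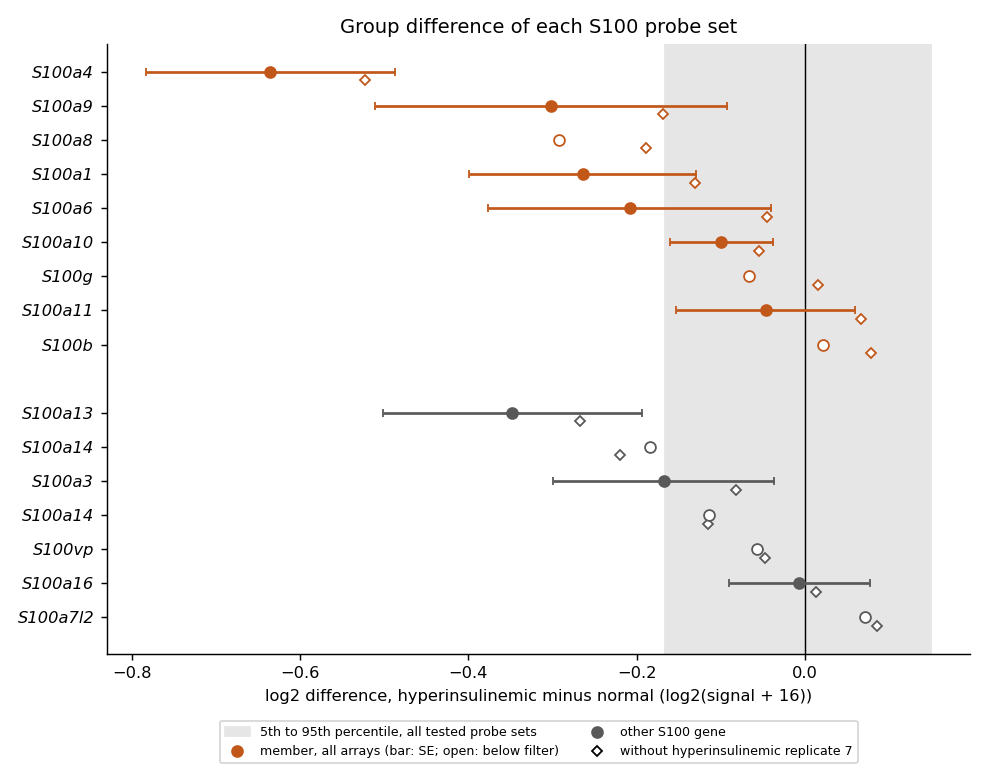
Log2 difference, hyperinsulinemic minus normal, of each S100 probe set on the log2(signal + 16) scale: filled circles with SE bars passed the filter, open circles did not, and small diamonds leave out hyperinsulinemic replicate 7. Grey shading spans the 5th to 95th percentile of all tested probe sets, -0.17 to 0.15, and S100a4 at -0.64 is farthest to the left.

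Of the 9 genes, S100a9 had the widest relative spread between hyperinsulinemic kidneys. S100a8 and S100a9 form calprotectin, a heterodimer that neutrophils and monocytes store in bulk, that binds zinc and manganese and that signals through Tlr4. S100a9 signals were 294, 103, 185, 154 and 104 in hyperinsulinemic replicates 6 to 10, against 165, 221, 196, 184 and 221 in normal replicates 1 to 5. The hyperinsulinemic arrays lay on both sides of the normal range: replicate 6 stood above it, and replicates 7, 9 and 10 stood below it. The coefficient of variation was 46.8% in the hyperinsulinemic and 12.2% in the normal group. The log2 difference was -0.30 ± 0.21 (SE) with all arrays and -0.17 without replicate 7 or without replicate 10. It was -0.51 without replicate 6, the array that correlated least with the rest and had the most liver albumin transcript (Alb, 1742). S100a8 signals were 82.8, 39.7, 83.2, 50.4 and 46.4 in the hyperinsulinemic group and 61.8, 86.2, 89.6, 83.7 and 58.5 in the normal group. S100a8 reached the 40th percentile on 1 hyperinsulinemic and 2 normal arrays, and was not tested. The replicates that were high or low for S100a9 in the hyperinsulinemic group were mostly so for S100a8: replicates 6 and 8 were high and replicates 7 and 10 low.

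Neutrophil and leukocyte markers were set beside them, and their part in the calprotectin signals was not tested. Of 11 neutrophil genes, 4 had a single-symbol probe set and 2 passed the filter, Mmp9 (log2 difference -0.14) and Lcn2 (0.36), the second of which injured tubules also make. The chemokine receptor gene Cxcr2, which neutrophils carry, averaged 12.1 ± 5.62 in the hyperinsulinemic and 9.26 ± 7.53 in the normal group (SD, n = 5 each). The sum over the 4 ran from 292 to 377 in hyperinsulinemic and from 279 to 373 in normal kidneys. Of 11 macrophage and general leukocyte genes, 8 were on the array and 5 were tested, with 2 lower, 3 higher and 0 past the threshold, from Lyz2 at -0.11 to Laptm5 at 0.17. Their summed signal was 1056 to 1233 in the hyperinsulinemic and 1055 to 1305 in the normal group. The receptor genes Tlr4 and Ager were both below the filter, at 39.4 ± 9.48 and 33.0 ± 20.3 in the hyperinsulinemic group and 38.6 ± 7.72 and 24.3 ± 8.89 in the normal group.

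S100a10 and S100a11 had the smallest differences among the tested members. S100a10, also called p11, has lost the ability to bind calcium and holds annexin A2 in a tetramer at the plasma membrane. Its signals were 1142, 1004, 1169, 1124 and 1258 in hyperinsulinemic replicates 6 to 10, against 1284, 1182, 1212, 1260 and 1159 in normal replicates 1 to 5. Replicates 6, 7 and 9 lay below every normal array, and the log2 difference was -0.10 ± 0.06 (SE), or -0.06 without replicate 7. S100a11, a partner of annexin A1, had signals of 2473, 1764, 2447, 2576 and 3026 in the hyperinsulinemic group and 2299, 2556, 2415, 2643 and 2614 in the normal group. Both the lowest and the highest of the 10 arrays were hyperinsulinemic, replicates 7 and 10. The means were 2457 ± 453 and 2505 ± 145 in the hyperinsulinemic and the normal group (SD, n = 5 each), and the log2 difference was -0.05 ± 0.11 (SE). It was 0.067 ± 0.067 without replicate 7. The annotation lists 5 pseudogenes named for S100a11 and 1 for S100a10, and cross-hybridisation of their transcripts was not tested. Anxa2 and Anxa1 themselves differed by 0.04 ± 0.07 and -0.14 ± 0.08 (log2, SE).

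S100a6 and S100a1 were both lowest on hyperinsulinemic replicate 7. S100a6, or calcyclin, is made by proliferating fibroblasts and epithelia. Its signals were 694, 444, 744, 836 and 911 in hyperinsulinemic replicates 6 to 10, against 828, 1086, 892, 697 and 654 in normal replicates 1 to 5. Apart from replicate 7, the hyperinsulinemic arrays fell inside the normal range, and the log2 difference was -0.21 ± 0.17 (SE) with all arrays and -0.05 without replicate 7. S100a1, best known as a calcium-cycling regulator of heart muscle, had 174, 88.2, 118, 156 and 154 in the hyperinsulinemic group and 168, 155, 160, 178 and 165 in the normal group. Its normal arrays were tightly grouped, with a coefficient of variation of 5.36%, against 24.9% in the hyperinsulinemic group. The log2 difference was -0.26 ± 0.13 (SE), and -0.13 without replicate 7.

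S100b and S100g were dim on every array, below the 40th percentile on all 10. S100b, the classical marker of glia and Schwann cells, had 37.5, 39.1, 53.4, 54.7 and 60.6 in hyperinsulinemic and 53.9, 35.0, 48.0, 51.5 and 50.7 in normal kidneys. Replicates 9 and 10 lay above every normal array, and the other hyperinsulinemic arrays lay within the normal range. Of 9 Schwann cell and glia genes, 7 were on the array and 2 were tested, Pmp22 (-0.14) and Erbb3 (0.04), while the glial regulator gene Sox10 averaged 5.98 ± 2.19 and 5.70 ± 1.54 (SD, n = 5 each) in the hyperinsulinemic and the normal group. S100g encodes calbindin-D9k, a vitamin D-dependent buffer that carries calcium through intestinal, uterine and distal tubule cells. Its signals were 26.9, 20.5, 25.7, 30.0 and 51.7 in the hyperinsulinemic group and 30.6, 32.1, 34.2, 44.0 and 22.0 in the normal group. It averaged 31.0 ± 12.1 in the hyperinsulinemic and 32.6 ± 7.89 in the normal group (SD, n = 5 each), and the groups overlapped.

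**Figure D2:**
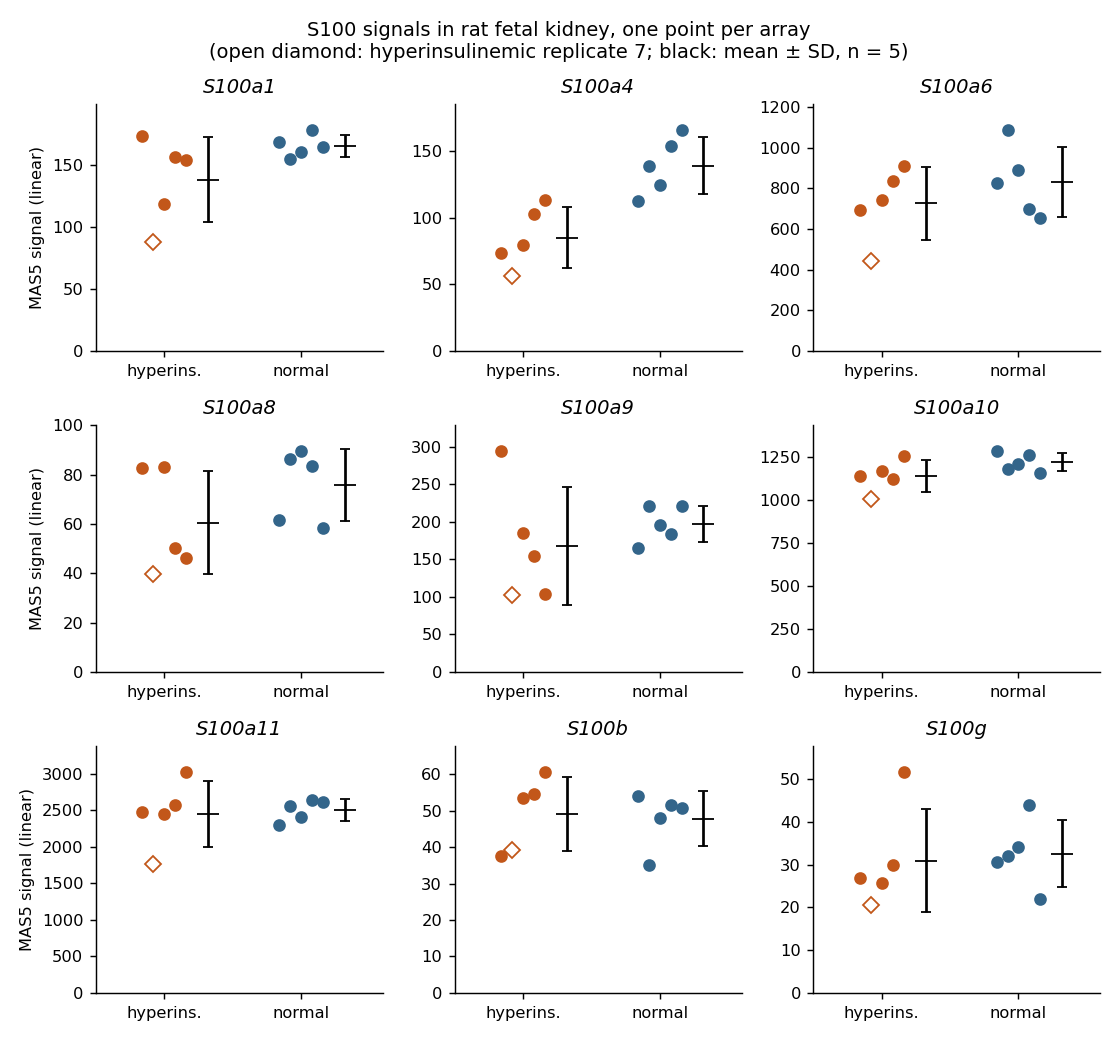
MAS5 signal (linear axis from 0) of the 9 S100 genes on each array, hyperinsulinemic on the left and normal on the right of each panel, with the mean and SD of 5 arrays in black. The open diamond, hyperinsulinemic replicate 7, is the lowest of the 10 points in 8 of the 9 panels, all but that of S100b.

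Hyperinsulinemic replicate 7 held the lowest signal of all 10 arrays for 8 of the 9 members and for 6 of the 6 that were tested. Over all 9601 tested probe sets it was lowest for 10.7%, close to an equal share of 10 arrays. The array had the same trimmed mean as the others. On the log2(signal + 16) scale the 6 tested members stood between -0.81 (S100a6) and -0.22 (S100a10) below the mean of the other 4 hyperinsulinemic arrays, and 5 of them were under -0.4, as were 2.60% of all tested probe sets. Without replicate 7 the median log2 difference of the 9 members was -0.06 instead of -0.21, and 6 of 9 were below 0. S100a4 kept the largest difference, at -0.52, and S100a11 and S100g changed sign, to 0.067 and 0.015. Replicate 7 is part of the hyperinsulinemic mean on which the family was chosen, so that choice could favour genes low on it. Of the 7 probe sets of other S100 genes, 3 had their lowest signal on replicate 7, and 2 of the 3 tested had. The pattern of replicate 7 was noticed in the data, and no test was made of it.

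**Figure D3:**
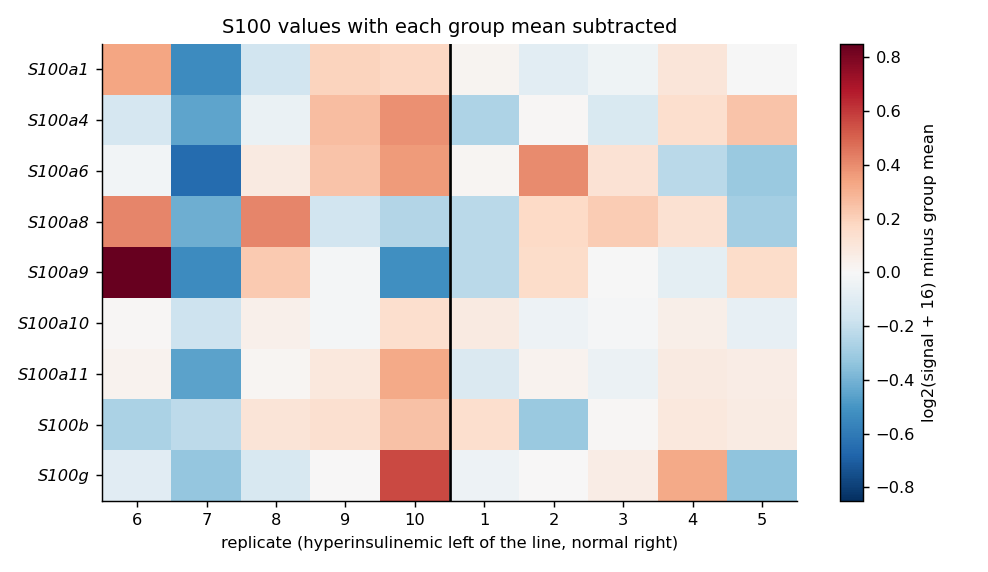
Log2(signal + 16) of the 9 members on each array after the mean of its group was subtracted, hyperinsulinemic arrays left of the line and normal arrays right. The column of replicate 7 is below its group mean for all 9 genes, and replicate 6 stands out for S100a9.

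Other gene families were low on the same array. Families were taken by the opening letters of gene symbols after the values had been seen. Such a family can hold some genes that are not subunits. Among 84 tested probe sets of oxidative phosphorylation symbols (Nduf, Uqcr, Cox, Atp5), 73.8% had their lowest signal on replicate 7. So had 64.3% of 14 with proteasome core symbols (Psma, Psmb) and 52.1% of 48 with cytosolic ribosomal protein symbols (Rpl, Rps). Of 28 collagens 14.3% had it there, and of 182 solute carriers 6.59%. Between replicate 7 and the other hyperinsulinemic arrays the median log2 difference was -0.33 for the oxidative phosphorylation, -0.19 for the ribosomal and -0.62 for the S100 probe sets. As signs of RNA integrity, the ratio of 3′ to 5′ control signals of Gapdh was 1.04 on replicate 7, within the 1.02 to 1.18 of the other arrays, and that of beta-actin was 1.39, above their 1.21 to 1.37. The part of these in the S100 signals was not tested.

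**Figure D4:**
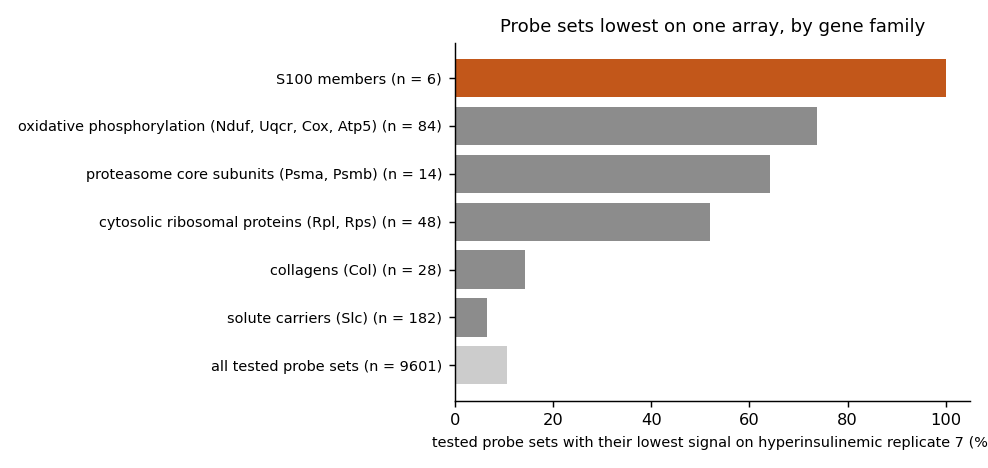
Share (%) of tested probe sets whose lowest signal among the 10 arrays was on hyperinsulinemic replicate 7, by gene family, with the number of probe sets in brackets. The S100 bar is 100% of 6 probe sets, the oxidative phosphorylation bar 73.8%, and the bar of all tested probe sets 10.7%.

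S100a4 and S100a11 varied together between kidneys within both groups. With each group's mean subtracted, their log2 values over the 10 arrays had a Pearson correlation of 0.90 (exact permutation within groups, two-sided, p = 0.000278) and a Spearman correlation of 0.95 (p = 0.00111, exact permutation). Adjusted by Benjamini-Hochberg over all 36 pairs of members, these exact permutation p-values were 0.0100 and 0.0400, and no other pair passed. Without the 2 arrays farthest from the median of S100a4, replicates 6 and 7, the Pearson correlation was 0.87, and it was 0.88 without replicate 7 alone. All points share the same arrays and the same scaling. Over all tested probe sets, the highest correlation of each with any other had a median of 0.949 and a 5th percentile of 0.907. The 0.90 of S100a4 and S100a11 was below both. Whether the pairing is particular to these 2 genes was not tested.

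**Figure D5:**
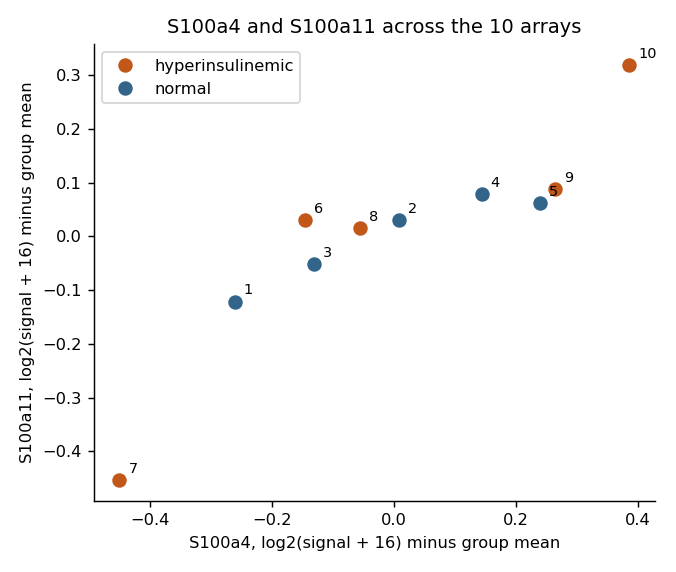
S100a4 against S100a11, both as log2(signal + 16) minus the mean of the array's group, with 1 point per array labelled by replicate, hyperinsulinemic and normal in separate colours. The 10 points rise together (Pearson correlation 0.90), with replicate 7 at the lower left and replicate 10 at the upper right.

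The correlations of the family as a whole were lower without replicate 7. The median Pearson correlation of the 36 pairs was 0.48, with 30 above 0, and without replicate 7 it was 0.04, with 19 above 0. Among every 20th tested probe set, with all arrays, 57802 of 115440 pairs were above 0, and the median was 0.000694. S100a10 and S100a11, neighbours on the chromosome, had a correlation of 0.75 (exact permutation p = 0.0813, adjusted p = 0.429), which was 0.29 without replicate 7. The calprotectin subunits S100a8 and S100a9 had 0.75 (exact permutation p = 0.0426, adjusted p = 0.429) and a Spearman correlation of 0.74 (exact permutation p = 0.0542, adjusted p = 0.65). Their Pearson correlation was 0.66 without replicate 7 and 0.49 without replicates 7 and 10, the arrays farthest from the median of S100a8. S100a10 and S100g, the second of them below the filter, had 0.78 (exact permutation p = 0.028, adjusted p = 0.429), and 0.75 without replicate 7. S100a4 and S100a9 had a correlation of -0.02 (exact permutation p = 0.969, adjusted p = 0.979).

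Genes whose pattern over the arrays was most like a member's were sought over all tested probe sets, by the Pearson correlation of group-centred log2 values on 10 arrays. For S100a4 these were Amdhd2 (0.98), an enzyme gene of amino sugar metabolism, the fatty acid carrier gene Fabp3 (0.95) and the focal adhesion gene Zyx (0.93). For S100a11 they were the ubiquitin-like modifier gene Nedd8 (0.97), the thioredoxin gene Txn1 (0.96) and the RNA polymerase subunit gene Polr2i (0.95). For S100a9 they were Ormdl2 (0.99), Cfdp1 (0.97) and Stau2 (0.94), for S100a6 Cnih4 (0.98), Psph (0.94) and Smim26 (0.93), for S100a10 Erh (0.95), Atp5po (0.93) and Rpl35a (0.93), and for S100a1 Krtcap2 (0.96), Bysl (0.95) and Cnot10 (0.95). The highest correlation that a tested probe set had with any other had a median of 0.949 and a 95th percentile of 0.979, which the nearest genes of S100a9, S100a4 and S100a6 exceeded. No member of the family was among the 3 nearest genes of another. These correlations include hyperinsulinemic replicates 6 and 7 and were not recomputed without either. Relative to its group mean, S100a9 stood at 0.85 on replicate 6 and at -0.53 on replicate 7 (log2). Atp5po and Rpl35a belong to the oxidative phosphorylation and ribosomal families that were mostly low on replicate 7.

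Genes of known partners and relatives of the S100 proteins were read in the same fit, in which 0.0104% of all tested probe sets passed. Of 21 genes of binding partners and receptors, 18 were on the array and 14 were tested: 8 were lower, 6 higher and 0 passed, with a median log2 difference of -0.02. The range ran from Anxa1 to Stk38, a kinase gene whose product binds S100b, at 0.13 ± 0.06 (SE). The myosin heavy chain gene Myh9, whose product S100a4 binds, differed by 0.05 ± 0.07. Of 20 other EF-hand genes, 14 were tested: 9 were lower, 5 higher and 0 passed, with a median of -0.03. They ran from Calb1, the larger calbindin of the distal tubule, at -0.33 ± 0.20 to the endoplasmic reticulum gene Rcn1 at 0.06 ± 0.07. Calb1 averaged 561 ± 195 in the hyperinsulinemic and 686 ± 158 in the normal group (SD, n = 5 each), with 327 on replicate 7. Without replicate 7 the log2 difference of Calb1 was -0.16. Among 12 genes of renal calcium transport and vitamin D, 7 were tested, with 6 lower, 1 higher and 0 past the threshold. Of all tested probe sets, 49.1% were lower. The vitamin D-activating enzyme gene Cyp27b1 was the 1 that was higher, at 0.42 ± 0.27. Its signals were 230, 99.5, 308, 110 and 111 in hyperinsulinemic replicates 6 to 10, against 76.5 to 174 in the normal group.

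The array held 7 probe sets of 6 other S100 genes. Of these, 6 were lower and 1 was higher in the hyperinsulinemic group, where 49.1% of all tested probe sets were lower. The 3 tested were S100a13, S100a3 and S100a16, and 0 passed. S100a13, which takes part in the release of growth factors that lack a signal peptide, had 159, 125, 128, 169 and 245 in the hyperinsulinemic group and 171, 213, 240, 180 and 251 in the normal group. The lowest 4 hyperinsulinemic arrays lay below every normal array, and the log2 difference was -0.35 ± 0.15 (SE). S100a3 differed by -0.17 ± 0.13 and S100a16 by -0.01 ± 0.08. S100a7l2 and S100vp had signals of 3.8 or lower on every array.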

How the data were processed

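The deposited values were 1 linear intensity per probe set and array, made by the authors with MAS5, per the submitters' processing notes; its version and settings were not stated there. All arrays had a 2% trimmed mean of 250.04 to 250.05, so the values had been scaled to 1 target and were used as deposited, with no array imputed or dropped. Names came from GEO's platform annotation, which gave 12789 of 15923 probe sets 1 symbol, 312 several and 2822 none; the members had 1 probe set each.

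Tests used log2(signal + 16), which understates fold changes of dim genes. After removal of 57 controls, 9601 probe sets that reached the 40th percentile of the array on 5 or more of 10 arrays were tested. The comparison was made in limma 3.58.1 (R 4.3.3; lmFit, eBayes with intensity trend), two-sided, Benjamini-Hochberg over all tested, threshold 0.05. Correlations used group-centred values and all 14400 permutations within groups. Figures used Python 3.11.15 and matplotlib 3.10.9. The number of arrays limits the precision.

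The members and lists were chosen with earlier results of these data known. All members are named; of each list used, the tested genes with the lowest and the highest difference and any passing gene, and per tested member the 3 most correlated genes. Other genes named were chosen after their values were seen. Alternatives were other pseudocounts, filters, normalizations, variance models and weights, and leaving out each array.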

Additional observations from a re-analysis of the deposited data

Results flagged for a closer look

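Among 32 groups of 5 arrays, the 2 groups of each of the 16 S100 probe sets, 1 held an array far from the rest: S100a7l2 read 3.8 on normal replicate 1, where the next highest normal array read 1.5. Chance flags about 1 group in 20, and the probe set was below the filter on every array.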

How the results depend on the processing

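The differences of the 9 members were recomputed under up to 18 alternatives each, 8 of processing and 10 that left out an array, which gave 156 values. None of the values that had an adjusted p passed the threshold. S100a8, S100b and S100g had an adjusted p only when no filter was used. Among the 6 tested members, the sign changed for S100a11 without hyperinsulinemic replicate 7 (0.067, against -0.047 with all arrays) and in no other case. Of the members below the filter, S100g changed sign without normal replicate 4 (0.013) or hyperinsulinemic replicate 7 (0.015), and S100b without normal replicate 2 (-0.057) or hyperinsulinemic replicate 8 (-0.0051), 9 (-0.012) or 10 (-0.041). With arrays left out in turn, S100a11 ran from -0.13 to 0.067. The count of members past the threshold was 0 under every alternative, and the lowest adjusted p was 0.203, for S100a4 with array weights (limma). S100a4 ran from -0.73 to -0.52 when arrays were left out and from -0.73 to -0.56 under the alternatives of processing. The count over all probe sets, 1 as reported, was 5 without a filter, 2 with arrays shifted to a common median, 0 without the intensity trend and 4 with array weights, and it ran from 0 to 4 when arrays were left out: 4 without hyperinsulinemic replicate 6, 2 without normal replicate 5, 1 without hyperinsulinemic replicate 8 or 10, and 0 without any other array. The cause was not tested. With the filter at the 60th percentile S100a1, S100a4 and S100a9 were not tested. No paired analysis was possible because the groups share no replicate number. S100a8, S100b and S100g were below the filter, and the number of arrays limits the precision of all values.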
